A study of Mus musculus with 8 samples.

Results

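The genes described here are 10 genes of intestinal vitamin A uptake and retinoid metabolism (Scarb1, Bco1, Rbp2, Lrat, Rdh7, Dhrs3, Aldh1a1, Aldh1a2, Aldh1a3 and Isx), out of 25239 genes in the count table. They were picked by name as a pathway, and the pathway was chosen on results of the same CD1d-KO against WT contrast that is described below. The differences of these 10 genes are therefore given as descriptions. Where the fit over all genes called them, the call is a description too and is not read as a test. CD1d displays lipid antigens to T cells, and the study asked how intestinal epithelial cells (IECs) differ in mice without it. EpCAM+ IECs, gated free of CD45+, CD31+ and Ter119+ cells, were sorted from crypt preparations of the proximal small intestine and profiled by bulk RNA-seq. The 4 CD1d-KO samples carry the genotype label CD1d1/2 KO, a germline deletion of both Cd1d genes that also leaves the mice without natural killer T (NKT) cells, and the 4 WT samples carry the label C57BL/6Jax. All mice were untreated young adults of both sexes according to the study's methods. The samples came from 2 experiments, and the labels do not say which sample belongs to which.

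Dietary vitamin A enters the enterocyte as retinol, released from retinyl esters in the gut lumen, or as carotenoids taken up through the scavenger receptor SR-BI (Scarb1) and cleaved to retinal by BCO1. Retinal is reduced to retinol, which is held by the cellular retinol-binding protein RBP2 and esterified by LRAT, and the esters leave in chylomicrons. A small part is oxidised, first to retinal and then by the ALDH1A enzymes to retinoic acid, which acts through nuclear receptors. In the intestine retinoic acid induces the homeobox repressor ISX, which lowers Scarb1 and Bco1, and this closes a feedback loop on uptake.

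The 4 CD1d-KO samples had 8, 3, 5 and 0 Cd1d1 reads against 81, 70, 94 and 50 in WT, so the targeted gene matched the labels in every sample. Total counts ranged from 23610266 to 31629435 per sample. Summed TPM (transcript abundance per length, scaled to a fixed total per sample) of 7 pan-epithelial markers, of which Krt8 had the highest count, were 12859 to 13304 in CD1d-KO and 12541 to 13906 in WT samples, so the sorted cells carried the epithelial label. CD1d-KO samples 1 and 2 held Y-linked RNA (Ddx3y normalised counts 1722 and 2053, with Xist at 67.9 and 50.5), and the other 6 samples had at most 1 Ddx3y read, so the sexes were not balanced between the genotypes in these libraries. Nnt, which is known to carry a loss-of-function deletion in C57BL/6J mice, had normalised counts of 4432 to 4979 in CD1d-KO and 1756 to 1902 in WT samples. The loss of CD1d and a difference in strain background therefore cannot be told apart for any gene below.

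Over all genes, DESeq2 with Benjamini-Hochberg adjustment called 622 of 15446 tested genes at an adjusted p under 0.05 (4.03%), 255 of them higher in CD1d-KO (1.65%) and 367 lower (2.38%). Of the 10 retinoid genes, 9 could be tested, and 4 of these passed the same threshold, all higher in CD1d-KO: Lrat, Rdh7, Dhrs3 and Aldh1a1. The same 4 genes had every CD1d-KO sample above every WT sample, a pattern seen in 4.09% of tested genes. The log2 fold change was positive for 8 of the 9 genes, with a median of 0.35, against a median of 0.00 over all tested genes. As these genes were selected on this contrast, nothing is read from their calls, number, signs or median. Since IECs were measured in bulk, a change in the share of a cell type and a change in RNA per cell cannot be told apart.

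**Figure D1:**
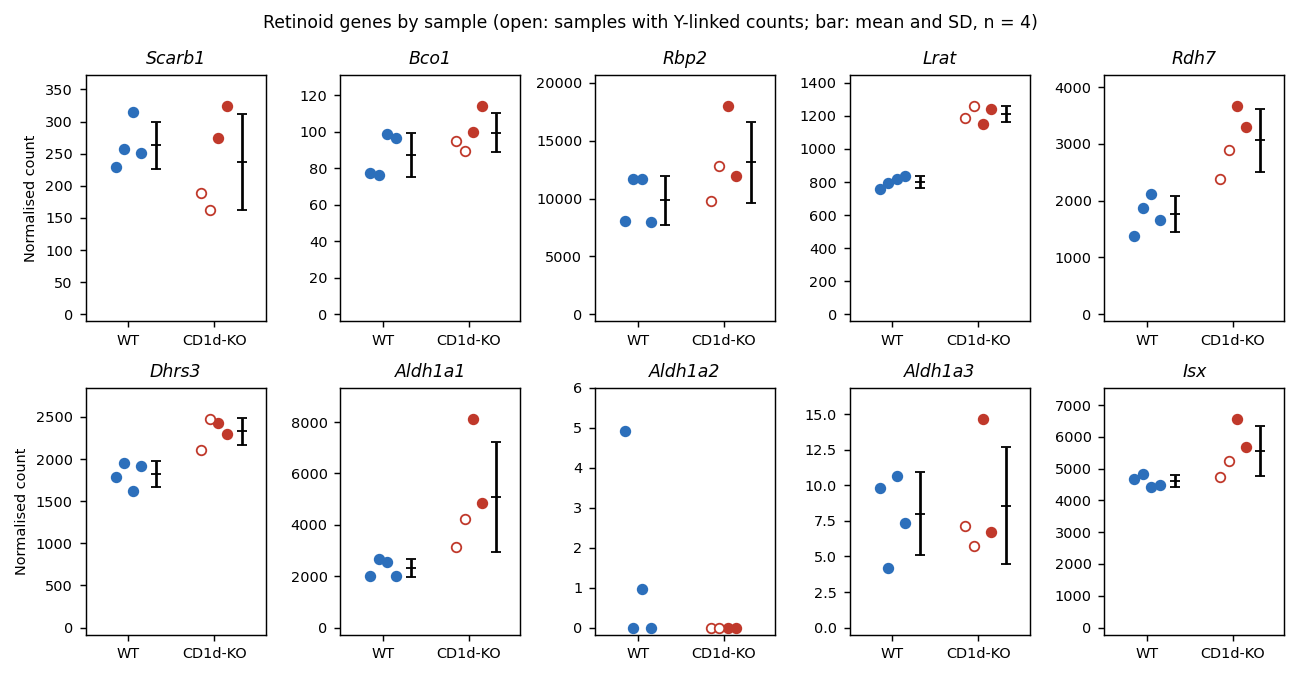
Normalised counts (y axis, each panel with its own linear scale) of the 10 retinoid genes in the WT and CD1d-KO samples, 1 point per sample. Open points are CD1d-KO samples 1 and 2, and bars give the mean and SD of 4 samples (not drawn for Aldh1a2). Lrat, Rdh7, Dhrs3 and Aldh1a1 have all 4 CD1d-KO points above all 4 WT points, while the points of Scarb1, Bco1, Rbp2, Aldh1a3 and Isx overlap.

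Promoter sequences are shown for Rbp2 and Bco1, which both match a motif, and for Aldh1a1 and its relative Aldh1a7, which share a long stretch. They are the 250 bases upstream of a transcript start, 5′ to 3′ on the strand of the gene, from RefSeq on GRCm38.p6, the assembly also called mm10. Entries were found for Aldh1a1, Aldh1a2, Bco1, Dhrs3, Isx, Lrat, Rbp2 and Rdh7. Bco1 (chr8:117095615-117095864, plus strand) and Rbp2 (chr9:98490287-98490536, plus strand) each held 1 match to TCANAGGTCA, searched on both strands, and the capitals show its reverse complement.
Rbp2: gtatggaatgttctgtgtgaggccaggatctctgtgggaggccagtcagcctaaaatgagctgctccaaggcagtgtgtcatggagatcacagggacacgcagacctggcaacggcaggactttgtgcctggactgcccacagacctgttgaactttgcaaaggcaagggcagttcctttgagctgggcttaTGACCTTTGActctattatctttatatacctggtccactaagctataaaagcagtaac
Bco1: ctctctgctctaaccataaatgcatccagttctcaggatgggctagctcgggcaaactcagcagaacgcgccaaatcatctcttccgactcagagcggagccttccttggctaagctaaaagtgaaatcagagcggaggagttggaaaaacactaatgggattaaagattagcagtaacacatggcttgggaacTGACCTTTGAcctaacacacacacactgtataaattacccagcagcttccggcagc
The match began 58 bases before the start in Rbp2 and 56 bases before it in Bco1. In Bco1 the bases that follow the capitals complete a second AGGTCA, so this window held AGGTCA 2 times as a full direct repeat spaced by 1 base, while Rbp2 held AGGTCA 1 time beside a part of a second copy. Direct repeats of this spacing are the kind of element that nuclear receptor pairs with RXR are known to bind, and the motif was chosen after these sequences had been seen. Of 32851 promoters of this length, 0.377% held TCANAGGTCA and 14% held AGGTCA, which lies within it. The windows of Lrat, Dhrs3, Isx, Aldh1a1 and Aldh1a2 held neither, and Rdh7 held AGGTCA at 1 of its 2 listed starts. At the second start listed for Aldh1a1 (chr19:20601718-20601967, plus strand), the bases resemble those of its neighbour and close relative Aldh1a7 (chr19:20727557-20727806, minus strand), and capitals mark the longest run the 2 windows share.
Aldh1a1: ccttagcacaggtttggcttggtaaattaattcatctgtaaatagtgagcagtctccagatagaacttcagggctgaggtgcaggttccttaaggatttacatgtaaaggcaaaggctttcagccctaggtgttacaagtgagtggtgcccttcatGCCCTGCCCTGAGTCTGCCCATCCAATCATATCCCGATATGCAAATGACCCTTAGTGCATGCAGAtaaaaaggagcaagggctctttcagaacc
Aldh1a7: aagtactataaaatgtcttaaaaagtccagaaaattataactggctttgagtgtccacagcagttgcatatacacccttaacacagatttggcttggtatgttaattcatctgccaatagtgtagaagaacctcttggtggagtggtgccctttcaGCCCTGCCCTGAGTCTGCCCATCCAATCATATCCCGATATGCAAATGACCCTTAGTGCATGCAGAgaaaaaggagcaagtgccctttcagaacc
The shared run is 65 bases long and starts 94 bases before the start in both genes. A match of letters is a description of these windows and not a measured binding site.

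The levels of the 10 genes were compared with each other as TPM, which divides by gene length. In WT IECs the cytoplasmic retinol carrier Rbp2 had by far the highest level among them, 1219 ± 256 TPM (SD, n = 4), rank 110 of all genes in the table, and it made up 69.4% to 75.8% of the summed TPM of the 10 genes in each WT sample. Isx followed at 213 ± 8.28 TPM. Rdh7, a short-chain dehydrogenase that oxidises retinol, stood at 91.6 ± 16.0 TPM. Next came Aldh1a1 at 63.5 ± 9.21 TPM and Dhrs3, which reduces retinal back to retinol, at 58.8 ± 4.78 TPM. These were neighbours whose WT ranges overlapped, and they were in the same order in 2 of 4 samples.

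Lrat stood at 12.5 ± 0.517 TPM in WT samples, below its substrate carrier Rbp2 in every sample. The 2 genes that bring in and cleave carotenoids were lower, Scarb1 at 7.06 ± 0.955 TPM and Bco1 at 2.87 ± 0.395 TPM. Aldh1a3 and Aldh1a2 were at the bottom with 0.196 ± 0.0717 and 0.0544 ± 0.0867 TPM, and their ranges overlapped. All other neighbours in this order were separated in all 4 WT samples. The order of the means was the same in CD1d-KO samples, where Rbp2 was at 1618 ± 386 TPM, Rdh7 at 159 ± 24.4 TPM, Aldh1a1 at 138 ± 54.1 TPM and Lrat at 18.8 ± 1.22 TPM. Among the 10 genes, Aldh1a1 moved up most places by mean TPM, from rank 3174 in WT to rank 1318 in CD1d-KO.

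**Figure D2:**
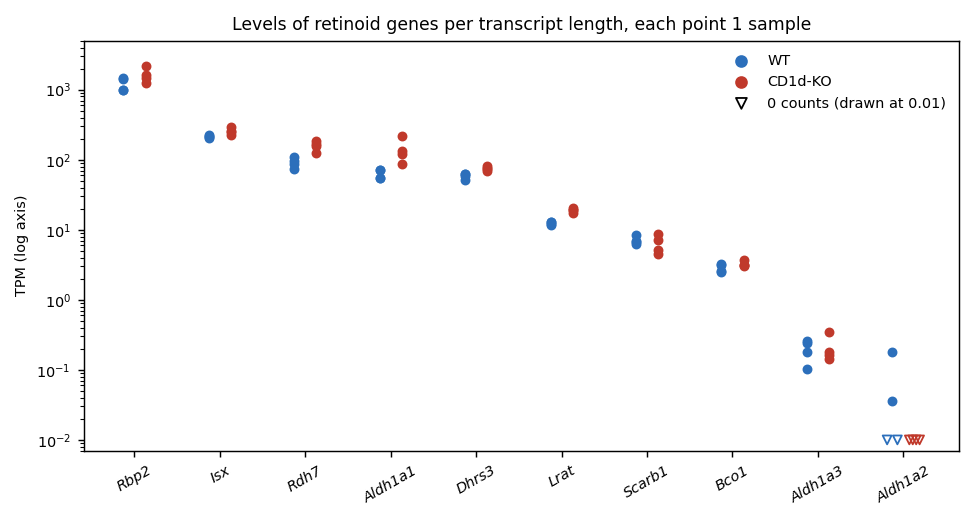
TPM (log axis) of the 10 retinoid genes in each sample, ordered by their WT mean, with WT in blue and CD1d-KO in red. Triangles mark samples with 0 counts of Aldh1a2, drawn at 0.01 because a log axis has no 0. Levels span from Rbp2 at 1219 TPM in WT samples to Aldh1a2 at 0.0544 TPM.

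Among the genes of carotenoid entry, neither Scarb1 nor Bco1 separated the genotypes. Scarb1 had normalised counts of 189, 163, 274 and 325 in CD1d-KO samples and 230, 258, 315 and 251 in WT samples. The lowest values were those of CD1d-KO samples 1 and 2, the samples with Y-linked RNA, and the log2 fold change of −0.15 ± 0.20 (SE) became 0.18 ± 0.18 without them. Bco1, the enzyme that splits beta-carotene into retinal, had 94.8, 89.5, 99.7 and 114 in CD1d-KO, against 77.6, 76.5, 98.9 and 96.6 in WT. These ranges overlapped, with a log2 fold change of 0.19 ± 0.18.

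Rbp2 normalised counts were 9780.05, 12824, 18009 and 11930.0 in the CD1d-KO group, against 8045, 11677, 11726 and 7976 in WT. CD1d-KO sample 3 was highest and the other 3 CD1d-KO samples lay within or just above the WT range. The log2 fold change was 0.41 ± 0.25, and 0.22 without CD1d-KO sample 3.

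Lrat, the acyltransferase that turns RBP2-bound retinol into retinyl ester for storage and export, was 1.51-fold higher in CD1d-KO IECs (log2 fold change 0.60 ± 0.07). Its normalised counts were 1189, 1261, 1151 and 1243 in the CD1d-KO group, against 755, 795, 820 and 835 in WT. The 2 groups were tight, with 1211 ± 50.2 against 801 ± 35.0 (SD, n = 4), and the lowest CD1d-KO sample was 1.38 times the highest WT sample. The samples with Y-linked RNA did not stand apart from the other CD1d-KO samples, and the log2 fold change without them was 0.58 ± 0.10. Over the 16 alternative analyses the log2 fold change ranged from 0.57 to 0.62.

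Lrat is the only one of the 10 genes on chromosome 3, which also carries the targeted locus. It lies on mm10 at chr3:82892582-82903974, minus strand, 4.1 Mb from Cd1d1, close enough to be inherited together with the deletion. The 5 tested genes nearest to Lrat on either side were Ctso, Tdo2, Asic5, Map9, Npy2r, Plrg1, Tlr2, Tmem131l, Mnd1 and Gm6525. None of these 10 was called, and their log2 fold changes ran from −0.37 for Map9 to 0.55 for Tdo2, the latter with an SE of 0.90. Within 10 Mb of Cd1d1, 240 genes were tested, of which 3 were called higher, Lrat among them, and 16 lower. Elsewhere, 252 of 15206 tested genes were called higher and 351 lower. Whether sequence differences at Lrat play a part was not tested.

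**Figure D3:**
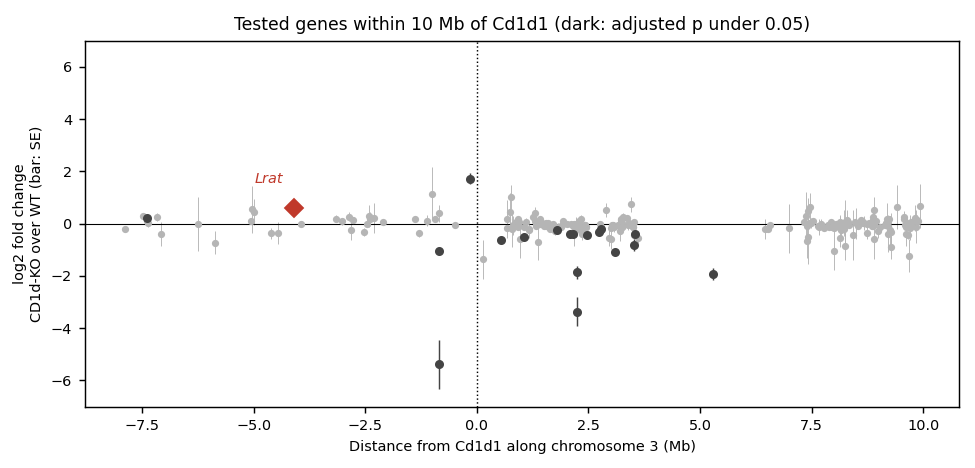
log2 fold change of CD1d-KO over WT with its SE (y axis) for the 240 tested genes within 10 Mb of Cd1d1, by distance from Cd1d1 along chromosome 3 in Mb (x axis). Dark points passed an adjusted p under 0.05, grey points did not, and the diamond is Lrat at 0.60. Genes next to Lrat are grey and most dark points lie on the other side of Cd1d1 and below 0.

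Of the enzymes that interconvert retinol and retinal, Rdh7 was 1.74-fold higher in CD1d-KO IECs. Rdh7 normalised counts were 2377, 2894, 3669 and 3295 in CD1d-KO, against 1380.35, 1869, 2125 and 1657 in WT. No sample overlapped, although the lowest CD1d-KO sample was only 1.12 times the highest WT sample. The log2 fold change was 0.80 ± 0.14, and 0.99 ± 0.14 without the 2 samples with Y-linked RNA, which held the lowest CD1d-KO values. Rdh7 sits among closely related genes, and its longest open reading frame is 84.4% to 87.2% identical to those of Rdh1, Rdh9, Rdh16, Rdh16f2 and Rdh19, so single reads could have been assigned between them. Rdh1, Rdh9, Rdh16 and Rdh16f2 had between 31.0 and 277 normalised counts per sample, well below Rdh7, and none of them was called. Rdh16f2 had a log2 fold change of 0.72 ± 0.27, close to that of Rdh7. Its normalised counts were 46.7 to 85.4 in CD1d-KO and 31.0 to 41.9 in WT samples, without overlap. Rdh1, Rdh9 and Rdh16 were at 0.20 ± 0.22, 0.15 ± 0.15 and 0.39 ± 0.32, with overlap.

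Dhrs3, which runs the opposite reaction and is itself a known retinoic acid target, was 1.28-fold higher. The values were 2113, 2473, 2432 and 2295 in CD1d-KO samples and 1792, 1956, 1621 and 1918 in WT samples. The groups did not overlap, with a log2 fold change of 0.35 ± 0.08 that ranged from 0.30 to 0.40 over the alternatives. Both directions of this step were therefore represented by a gene with more RNA in CD1d-KO IECs.

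Aldh1a1, which oxidises retinal to retinoic acid, had the largest log2 fold change of the 9 tested genes, 1.14 ± 0.32. Its normalised counts were 3126.5, 4209, 8113 and 4858 in the CD1d-KO group, against 2005, 2653.5, 2564 and 2005 in WT. WT samples were close together, while the CD1d-KO samples differed among themselves, with a mean of 5077 ± 2147 (SD, n = 4). CD1d-KO sample 3 was the highest, and without it the log2 fold change was 0.82. Over the 8 analyses that left out 1 sample the log2 fold change ranged from 0.82 to 1.31. The call was not kept in all of these. As Aldh1a1 was chosen on this contrast, nothing is read from its calls. Without the 2 samples with Y-linked RNA the log2 fold change was 1.49 ± 0.28. An exon of Aldh1a1 overlaps the noncoding gene E030003E18Rik, and strand was not used in counting, so reads there are uncertain.

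The other retinal oxidases were almost absent. Aldh1a2 had 0 counts in each CD1d-KO sample and 5, 0, 1 and 0 counts in WT samples. A count of 0 allows up to 3 counts, so no fold is given. Its mean normalised counts of 0 in CD1d-KO and 1.47 in WT were under the independent filtering threshold of 2.41, so the gene was not tested. Aldh1a3 had 8, 6, 15 and 7 counts in CD1d-KO and 10, 4, 11 and 6 in WT samples. Aldh1a1 made up 99.2% to 99.9% of the summed TPM of the 3 ALDH1A genes in each sample. The coding sequence of Aldh1a1 was 69.9% identical to that of Aldh1a2 and 68.2% identical to that of Aldh1a3.

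Isx, the repressor of Scarb1 and Bco1, had normalised counts of 4732, 5251, 6557 and 5677 in CD1d-KO samples and 4674, 4825, 4413 and 4486 in WT samples. Only CD1d-KO sample 1 fell inside the WT range. The log2 fold change of 0.27 ± 0.09 did not pass the threshold. Without the 2 samples with Y-linked RNA it was 0.41 ± 0.09. The log2 fold change of Isx was 0.41 with a sex term and 0.34 without CD1d-KO sample 1 alone. Leaving out the samples with Y-linked RNA compared 2 against 4 samples and called 2.57% of 14473 tested genes. Both samples with Y-linked RNA were CD1d-KO, so the genotype difference with a sex term rests on the same 2 against 4 samples.

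CD1d-KO sample 3 had the highest level of Rbp2, Rdh7, Aldh1a1, Aldh1a3 and Isx. It also had the highest summed TPM of 13 villus enterocyte markers, 11345, against 6587 to 10140.1 in the other CD1d-KO samples and 6234 to 8406 in WT samples. With equal weight per marker, as the mean of log2(normalised count + 1) centred per gene, CD1d-KO samples 3 and 4 were close, at 0.328 and 0.310. By this mean CD1d-KO sample 1 was at −0.275, near WT samples 1 and 4 at −0.271 and −0.286. Of these 13 markers, among which Anpep had the highest count, 1 was called higher (Mme), against 1.65% of all tested genes. Their median log2 fold change was 0.17. Lrat and Dhrs3 were not highest in CD1d-KO sample 3. Crypt markers, with Olfm4 as the highest, summed to 4900 to 7264 TPM in CD1d-KO and 4533 to 6458 TPM in WT samples, and 0 of 8 were called. The part of a shift in the mix of mature and crypt cells in the Aldh1a1, Rdh7 and Rbp2 differences was not tested.

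Markers of other tissues and cell types were also followed. Summed TPM of 12 stomach markers, with Gkn2 the highest by mean count, were 58.4 to 129 in CD1d-KO and 203 to 1238 in WT samples, with 6 of 12 called lower. Gkn3 made up most of the CD1d-KO sums, at 97.0, 88.8, 52.6 and 70.5 TPM in samples 1 to 4. It overlapped between genotypes, with a log2 fold change of −0.08 ± 0.31. Gkn2 was at 0, 0.105, 0 and 20.4 TPM in CD1d-KO samples 1 to 4, against 49.0, 52.9, 411 and 272 TPM in WT samples. T and NK cell markers, of which Ptprc had the highest mean count, summed to 1.499 to 6.32 TPM in CD1d-KO against 4.09 to 38.0 TPM in WT samples (2 of 7 lower), and B and plasma cell markers, with Jchain the highest by count, to 0.561 to 1.99 against 2.97 to 23.4 TPM (2 of 5 lower). Myeloid markers, with Itgam the highest by count, summed to 19.5 to 26.9 against 23.6 to 40.8 TPM, with 1 of 5 tested genes lower. Stromal and endothelial markers, with Pecam1 the highest by count, were at or under 0.939 TPM in all samples and 0 were called. Proximal intestine markers, with Gata4 the highest by count, summed to 202 to 263 TPM in CD1d-KO and 220.2 to 306 TPM in WT samples (1 of 5 lower, Slc11a2), and distal markers, with Fabp6 the highest by count, to 2055 to 3984 against 2531 to 3198 TPM (0 of 4 called). Over all tested genes, 2.38% were called lower. No marker was at 0 in every sample. The part of these cells and regions in the retinoid differences was not tested.

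**Figure D4:**
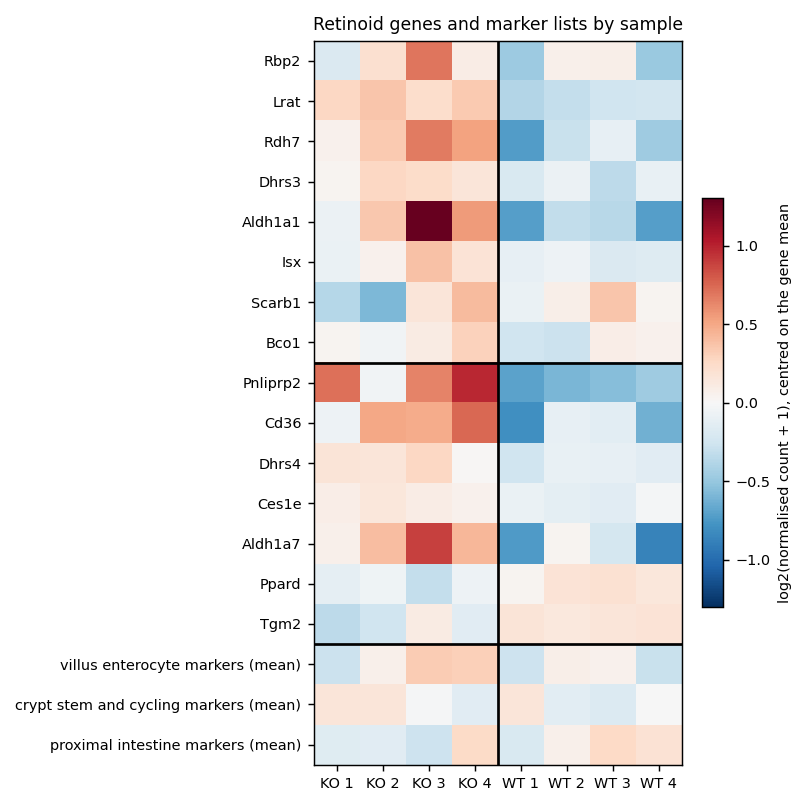
log2(normalised count + 1) of 8 retinoid genes, the 7 called genes of the wider pathway and the mean of 3 marker lists (rows), each centred on its own mean over the 8 samples (columns), with red above and blue below the mean. Aldh1a1, Aldh1a7 and Rdh7 share their highest value in KO 3, where the villus enterocyte markers are also high, as they are in KO 4. Lrat is even across the 4 KO columns.

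To place these genes in the wider pathway, 67 other genes of retinoid handling were listed by role, of which 66 were in the table and 51 were tested. The list was drawn up with earlier results for Cd36 and Pnliprp2 known, and both are among the genes called higher. Of the 51, 5 were called higher and 2 lower, against 1.65% and 2.38% of all tested genes, 44 were not called, and the median log2 fold change was 0.07. The called genes were spread over 6 of the 10 roles.

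At the step of luminal lipid and ester entry, 2 of 4 tested genes were higher in CD1d-KO, against 1.65% of all tested genes. These are the 2 genes whose earlier results were known, so their values are given as a description. Pnliprp2, a lipase related to pancreatic lipase, rose with a log2 fold change of 1.20 ± 0.17. Its normalised counts were 1160, 682, 1103 and 1391 in CD1d-KO, against 435, 464, 479.9 and 509.8 in WT, with no overlap. Cd36, a fatty acid translocase that also takes up carotenoids, rose with a log2 fold change of 0.83 ± 0.19. It had 216 to 348 normalised counts in WT and 359 to 632 in CD1d-KO samples. The cholesterol transporter Npc1l1, the gene of this step with the highest count, had a log2 fold change of −0.08 ± 0.11 and was not called.

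Next to Rdh7 and Dhrs3, 19 other genes of retinol and retinal interconversion were tested, and 1 was called higher, against 1.65% of all tested genes. Dhrs4, a retinal reductase, rose by a log2 fold change of 0.31 ± 0.07 (DESeq2 adjusted p = 0.00109), with 4516 to 5401 normalised counts in CD1d-KO and 3739.5 to 4175 in WT samples. Without the 2 samples with Y-linked RNA its log2 fold change was 0.30 ± 0.10 and did not pass. Adh1, the alcohol dehydrogenase with the highest count here, had a log2 fold change of 0.04 ± 0.11. Near Aldh1a1, the rodent duplicate Aldh1a7 rose with a log2 fold change of 0.88 ± 0.20 (DESeq2 adjusted p = 0.00105). Its normalised counts were 544, 689, 966 and 703 in CD1d-KO, against 312, 532, 444 and 285 in WT, with CD1d-KO sample 3 again highest. The coding sequence of Aldh1a1 is 91.6% identical to that of Aldh1a7, so some reads could have been assigned between them. How many was not tested, and neither rise is taken as independent of the other. The Aldh1a7 call was lost without CD1d-KO sample 2 or without WT sample 3. The genes of retinoic acid breakdown, Cyp26a1, Cyp26b1 and Cyp26c1, had under 8 normalised counts in each sample.

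Of 7 tested genes that form or hydrolyse retinyl esters, 6 had a positive log2 fold change, against 7766 of 15446 over all tested genes. Of the 7, 1 was called higher, against 1.65% of all tested genes. This was Ces1e, at 0.19 ± 0.06 (DESeq2 adjusted p = 0.0455), a call lost in all but 1 of the 8 analyses that left out a sample. Ces1d at 0.53 ± 0.17, Ces1f at 0.54 ± 0.27 and Ces2a at 0.55 ± 0.28 were larger but overlapped between genotypes and were not called. Ces1d passed with the filter of 10 counts in 4 samples and with a replicate block. Ces1f passed with the replicate block and Ces2a with a sex term. Dgat1, an acyltransferase that can also esterify retinol, had a log2 fold change of −0.12 ± 0.07 and was not called. No chylomicron gene was called, and Mttp, which loads lipid on apoB, had a log2 fold change of 0.14 ± 0.11. None of 4 tested retinoid binding proteins was called, with Rbp7 at 0.28 ± 0.13. Without the 2 samples with Y-linked RNA, Rbp7 had a log2 fold change of 0.46 ± 0.13 and passed (DESeq2 adjusted p = 0.0228), as it did with a sex term, and Fabp5 passed in both of these analyses too. Not called were the carotenoid oxygenase Bco2 at 0.07 ± 0.12 and the retinol receptor gene Stra6l at −0.09 ± 0.14.

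Among 6 tested nuclear receptors, Ppard, a partner of RXR, fell with a log2 fold change of −0.27 ± 0.07 (DESeq2 adjusted p = 0.0081). The Ppard call was lost without WT sample 2 or without WT sample 3. Rara, Rarb, Rarg, Rxra and Rxrb were not called. Of 3 tested genes known to respond to retinoic acid, the transglutaminase Tgm2 fell with a log2 fold change of −0.31 ± 0.09 (DESeq2 adjusted p = 0.0243). Its normalised counts were 6237, 6624, 8553 and 7139 in CD1d-KO, against 8923, 8684, 8841 and 8989 in WT. CD1d-KO sample 3 lay close to the WT samples, and of the 8 analyses that left out a sample, the call held only in the one without it. Without the 2 samples with Y-linked RNA the log2 fold change of Tgm2 was −0.17 ± 0.09 and did not pass (DESeq2 adjusted p = 0.4495), nor did it with a sex term, at −0.18. The other 2, Cdx1 and Nrip1, were not called.

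**Figure D5:**
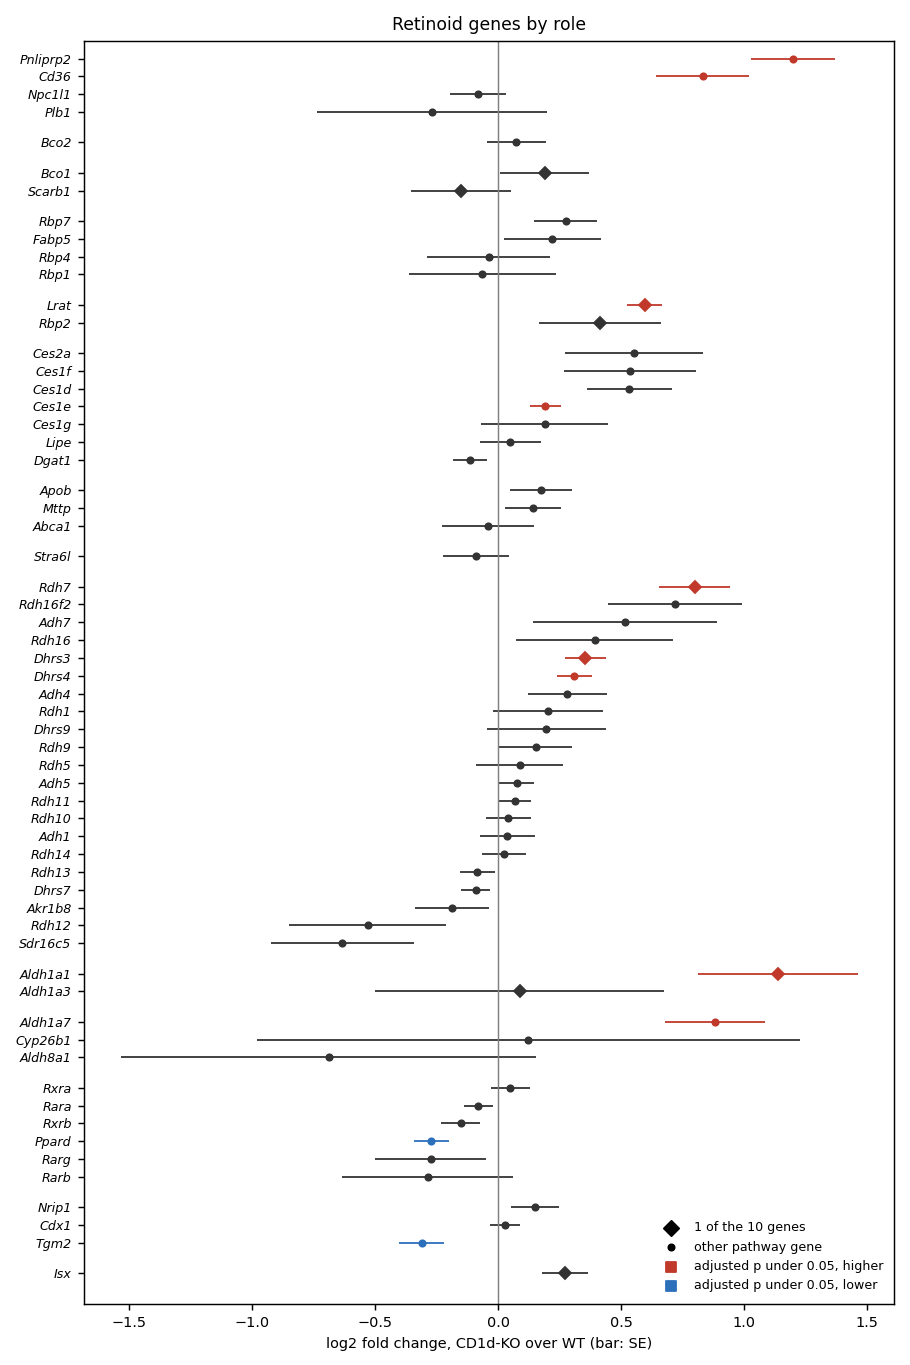
log2 fold change of CD1d-KO over WT (x axis) with SE for the tested retinoid genes, grouped by role from luminal entry at the top to Isx at the bottom. Diamonds are the 9 tested genes of the 10 and circles the 51 other pathway genes, coloured where the adjusted p was under 0.05. Aldh1a1 at 1.14 and Pnliprp2 at 1.20 lie furthest to the right.

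The genes whose pattern over the 8 samples was most like each retinoid gene were found by the root mean square distance between centred log2(normalised count + 1) profiles, among 11720 genes with a mean of at least 50. Nearest to Lrat were Pbld1 at 0.0631 and Gm16863 at 0.103, against a spread of 0.302 for Lrat itself. Nearest to Rbp2 were Tsku at 0.0625 and Hsd17b6 at 0.0871. Rdh7 and Aldh1a1 shared a near gene, the cytochrome P450 gene Cyp2c66, at distances of 0.129 and 0.206. The closest to each of them were Maob at 0.116 for Rdh7 and the glucuronosyltransferase gene Ugt1a9 at 0.167 for Aldh1a1. Dhrs3 was closest to Cabcoco1 and Ehbp1, Isx to Glyctk and Dnal1, Bco1 to Ttc30b and Plag1, and Scarb1 to Abhd15 and Wwc2.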

How the data were processed

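The values deposited by the authors are unnormalised fragment counts of each gene in 8 samples, beside a gene length column. Per the file headers, featureCounts 1.6.4 counted read pairs over exons by gene, with primary alignments only and strand not used, on an mm10 annotation, whereas the submitters' processing notes name GRCm39 and HISAT2. Coordinates are those of the table. Reads of near-identical genes may have been counted at either copy.

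Counts were compared by DESeq2 1.42.0 (R 4.3.3) with genotype as the only term. Normalised counts are divided by median-of-ratios size factors. TPM was computed from counts and the deposited length. Adjusted p-values cover 15446 genes. Independent filtering left out 3638 genes and Cook's rule 4. The fit was tested on simulated data. No pair of replicates agreed within sampling noise by a chi-square test. The labels give 4 samples per genotype and the methods 4 mice. Errors are SDs over 4 samples or DESeq2 standard errors (SE).

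Named genes are the 10 retinoid genes, called genes and the most abundant gene of each role in the pathway list, the 5 tested genes on each side of Lrat, the 2 genes nearest in pattern, checks (Cd1d1, Nnt, Xist, Ddx3y) and the most abundant marker of each list. Other names were chosen after values were seen. The genes and lists were chosen with earlier results of these data known. Alternatives were edgeR 4.0.16, TMM factors, size factors without the 50 most abundant genes, a filter of 10 counts in 4 samples, no filtering, a replicate block, a sex term, leaving out the Y-linked samples, leaving out each sample and counts per kb.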

Additional observations from a re-analysis of the deposited data

Results flagged for a closer look

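A stray value was looked for in 34 groups of 4 samples, over 17 genes. Aldh1a2 in CD1d-KO, at 0 in every sample, was among these groups and could not be tested. Of the others, 1 was flagged: the normalised Aldh1a3 count of CD1d-KO sample 3, at 14.7, stood apart from the next value of 7.15. The gap took 0.839 of the range of the 4 samples. Chance flags about 1 in 20 groups. The value rests on 15 reads.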

How the results depend on the processing

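Over 16 alternatives the log2 fold change ranged from 0.57 to 0.62 for Lrat, 0.70 to 0.99 for Rdh7, 0.30 to 0.40 for Dhrs3 and 0.82 to 1.49 for Aldh1a1, given as a description since these genes were chosen on the same contrast. The number of genes called over all genes was 228 by edgeR's quasi-likelihood test and 372 once CD1d-KO samples 1 and 2 were dropped. It ranged from 323, without CD1d-KO sample 2, to 646, without CD1d-KO sample 3, when 1 sample was left out. Of the other pathway genes, edgeR called 2 (Pnliprp2 and Dhrs4), and leaving out 1 sample gave from 3, without WT sample 3, to 8, without CD1d-KO sample 3, and gave 4 without CD1d-KO sample 2 or WT sample 2. Pnliprp2 was called in 16 of 16 alternatives, Cd36 and Dhrs4 in 15, Aldh1a7 and Ppard in 13, Tgm2 in 6 and Ces1e in 4. Calls of the 10 retinoid genes over these alternatives are not counted, since the genes were chosen on the same contrast.

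With a replicate block, 569 genes over all genes and 8 other pathway genes were called, and the log2 fold change of Rbp2 was 0.40. The same-numbered samples' deviations correlated at 0.285, 0.0250, 0.221 and 0.00395. CD1d-KO samples 1 and 3 correlated best with the WT sample of their own number, and samples 2 and 4 did not. These values do not settle whether the numbers pair the samples. With 2 experiments not mapped to samples, a batch was not tested.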
